A study of Mus musculus with 6 samples.

Results

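Glutathione peroxidases remove peroxides, most of them with glutathione as the electron donor, and a short set of enzymes makes and recycles that glutathione. The 9 genes described here, of 25491 in the deposited table, were chosen by symbol: the peroxidases Gpx1, Gpx3, Gpx4, Gpx7 and Gpx8, the synthesis genes Gclc, Gclm and Gss, and the reductase gene Gsr. All 9 were found and all 9 passed the filter on low counts. They were measured by RNA-seq in mesenchymal progenitor cells of bone marrow, a stromal population that can form bone, cartilage and fat and that supports blood stem cells. 3 libraries came from Lama4-/- animals, without the alpha 4 chain of the basement membrane protein laminin, and 3 from wild type (WT) animals. All mice were C57BL/6J, aged 14 weeks, and had received 7 Gy of sublethal radiation 6 weeks before, so no library comes from an unirradiated animal. The sort kept CD51+ cells that were CD45-, TER119-, CD31-, CD44- and SCA1-. The labels do not say in which cells the Lama4 deletion acts, nor whether every library had its own mouse, so the p-values read only how far these samples scatter, and that scatter may be technical.

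Glutathione is made in a pair of steps. Glutamate-cysteine ligase, a complex of the catalytic subunit Gclc and the modifier subunit Gclm, joins glutamate to cysteine and sets the rate, and glutathione synthetase (Gss) adds glycine. The peroxidases Gpx1, Gpx3 and Gpx4 oxidise glutathione to its disulfide while they reduce a peroxide, and glutathione reductase (Gsr) restores glutathione with NADPH. Gpx7 and Gpx8 act on protein disulfide isomerases instead, as described below. Marrow stroma makes much secreted and collagenous protein, and oxidative protein folding in the endoplasmic reticulum is itself a source of peroxide.

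The peroxidases differ at the catalytic residue, and the coding sequence around its codon is shown because it splits the 5 genes in a way the choice of members did not use. In Gpx1, Gpx3 and Gpx4 the codon is TGA, which elsewhere ends translation and in these genes is annotated as selenocysteine. In Gpx7 and Gpx8 a cysteine codon, TGT or TGC, stands at that place. Each window is 33 bases of an exon of the longest protein-coding transcript in GENCODE M21 (build GRCm38), given 5′ to 3′ on the coding strand with the catalytic codon in capitals. Gpx1 lies at chr9:108339436-108339468 on the plus strand (exon 1), Gpx3 at chr11:54907241-54907273 on the plus strand (exon 2) and Gpx4 at chr10:80054722-80054754 on the plus strand (exon 3). Gpx7 lies at chr4:108403415-108403447 on the minus strand (exon 2) and Gpx8 at chr13:113045646-113045678 on the minus strand (exon 2).
Gpx1: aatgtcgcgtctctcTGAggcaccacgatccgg
Gpx3: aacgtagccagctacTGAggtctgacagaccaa
Gpx4: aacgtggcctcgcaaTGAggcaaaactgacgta
Gpx7: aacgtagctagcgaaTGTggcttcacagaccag
Gpx8: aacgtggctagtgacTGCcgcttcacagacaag

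The Lama4-/- libraries held 12979711 to 15663957 counts and the WT libraries 6263830 to 13409177, with WT replicate 2 the shallowest. Lama4 had 0 counts in each Lama4-/- library and 236 to 607 in each WT library. Levels are in CPM, counts per 1000000 of the library total scaled by TMM (trimmed mean of M-values). All 8 stromal progenitor markers were counted in every library, and 5 of them (Lepr, Pdgfra, Pdgfrb, Kitl and Runx2) were lower in Lama4-/- at an unadjusted edgeR p under 0.05, of which Lepr, Pdgfrb and Runx2 stayed so once the trend with transcript length described below was removed; their 8 levels summed to 26310 to 73987 CPM in Lama4-/- and 42009 to 56356 CPM in WT, led by Col1a1 and Cxcl12. Among the gate's own genes, Cd44 RNA was at 63.6 ± 15.98 CPM in Lama4-/- and 121 ± 43.8 CPM in WT (SD, n = 3 each), although CD44+ cells had been gated out, and Itgav, which encodes CD51, was at 59.2 ± 14.3 and 114 ± 22.5 CPM; without the length trend their log2 fold changes were -0.32 and -0.12 (edgeR unadjusted p = 0.377 and 0.684). Of 14465 tested genes, Lama4 alone passed an adjusted p of 0.05 in edgeR's quasi-likelihood test (0.00691% of genes, and 0% on the higher side). Even the deleted gene only just passed, at an edgeR adjusted p of 0.0497. It did not pass once the length trend was removed (edgeR adjusted p = 0.0751), so a gene that was not called may still differ. Of all tested genes, 12.8% had an unadjusted p under 0.05, 4.45% higher and 8.34% lower in Lama4-/-.

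Transcripts of 4 peroxidases, Gpx1, Gpx4, Gpx7 and Gpx8, were between 1.56 and 1.92 times as high in Lama4-/- as in WT libraries, and in each of the 4 every Lama4-/- library lay above every WT library. Gpx3, the most abundant of the 5, and the genes Gclc, Gclm and Gsr had groups that overlapped. Gss lay between, with groups that only just failed to overlap. In the edgeR test over all genes no member reached an adjusted p of 0.05; their adjusted p ran from 0.237 for Gpx1, Gpx4 and Gpx8 to 0.96 for Gsr. The 4 peroxidases had an unadjusted p under 0.05, as 4.45% of all tested genes did on the higher side. Groups did not overlap, with Lama4-/- higher, in 5 of the 9 members and in 10.3% of all tested genes. Among genes about as short as Gpx1, Gpx4, Gpx7 and Gpx8 that share was 21.5% to 21.6%, as given below. The median log2 fold change was 0.64 over the 9 members and -0.04 over all tested genes.

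**Figure D1:**
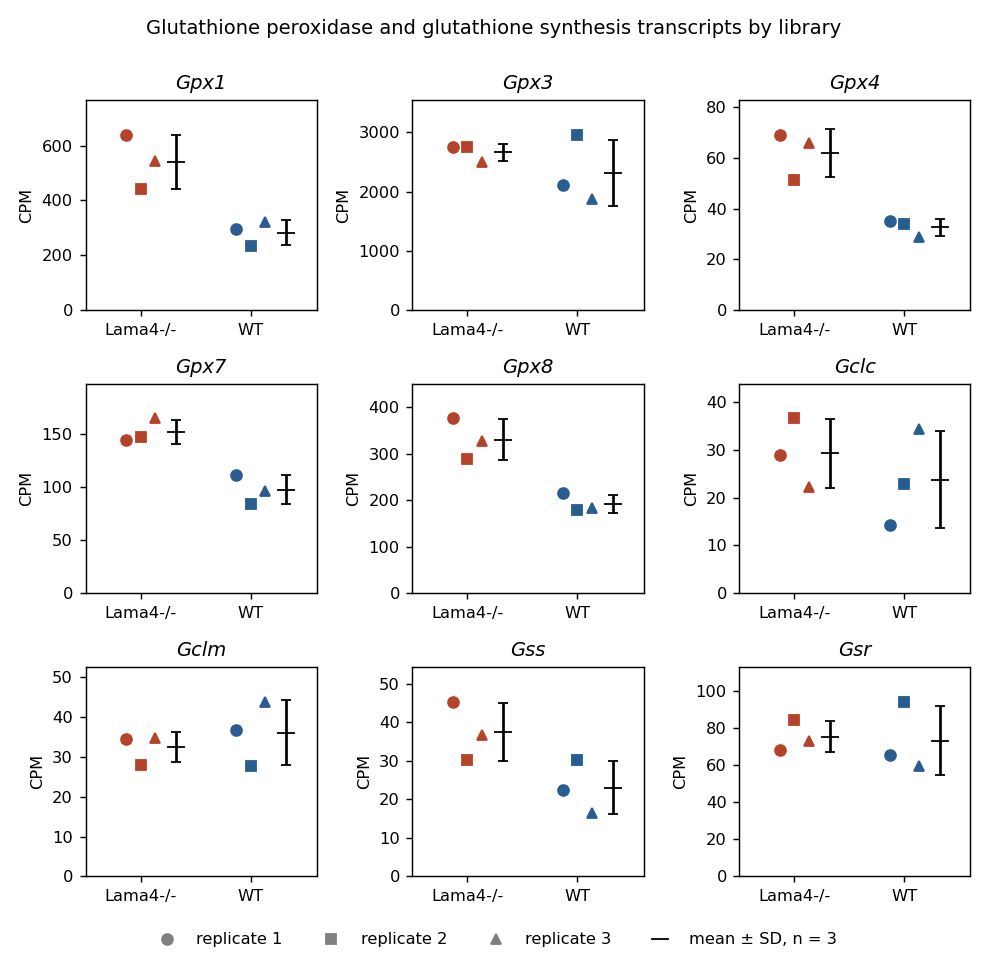
Level of each of the 9 transcripts (CPM, vertical axis from 0, a scale of its own in each panel) in the Lama4-/- libraries (red, left) and the WT libraries (blue, right), with the mean ± SD of 3 libraries in black. Gpx1, Gpx4, Gpx7 and Gpx8 show Lama4-/- points wholly above the WT points, while those of Gpx3, Gclc, Gclm and Gsr overlap.

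Gpx1 encodes the main peroxidase of the cytosol and mitochondria, which reduces hydrogen peroxide (chromosome 9, 108338903 to 108340343, plus strand, GRCm38). It was at 638, 442 and 544 CPM in Lama4-/- replicates 1 to 3, against 294, 232 and 321 CPM in WT replicates 1 to 3. The lowest Lama4-/- library was well above the highest WT library. Its log2 fold change was 0.94 (SE 0.21; edgeR unadjusted p = 0.00271, adjusted p = 0.237), the largest of the 9. Red cells and granulocytes are also rich in this enzyme as background knowledge, and their markers are given below beside it.

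Gpx4 reduces hydroperoxides of membrane phospholipids and so holds back ferroptosis, a form of cell death by lipid peroxidation (chromosome 10, 80047166 to 80056439, plus strand). It was at 68.9, 51.2 and 65.9 CPM in Lama4-/- and at 34.9, 33.7 and 28.9 CPM in WT, again with no overlap, and a log2 fold change of 0.93 (SE 0.23, edgeR adjusted p = 0.237). Its level is uncertain because of a near-identical copy. The processed pseudogene Gpx4-ps2 (chromosome 10, 45875291 to 45876086, plus strand) matched Gpx4 at 731 of 733 aligned bases, 99.7%. Of the 75-base windows of the 3 protein-coding Gpx4 transcripts, as long as the reads, 55.3%, 60.8% and 70% also occur letter for letter in Gpx4-ps2. How reads that fit both were counted is not given in the sources used here.

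Gpx4-ps2 was listed with more counts than Gpx4 in every library. It was at 143, 113 and 144 CPM in Lama4-/- and at 78.6, 69.9 and 64.4 CPM in WT, with a log2 fold change of 0.91 (SE 0.20, edgeR adjusted p = 0.237). Its counts were 2.07, 2.20 and 2.19 times those of Gpx4 in the Lama4-/- libraries and 2.25, 2.07 and 2.23 times in the WT libraries, so the ratio overlapped between genotypes. With both summed, the pair was at 212, 164 and 209.9 CPM in Lama4-/- and at 114, 104 and 93.4 CPM in WT. The log2 fold change of the sum was 0.92 (SE 0.19, edgeR adjusted p = 0.237), close to that of Gpx4 alone. The other copy in the table, Gpx4-ps1, had 4 counts in Lama4-/- replicate 2 and 0 elsewhere. The other 4 peroxidases shared no 75-base window with a transcript of another annotated gene.

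**Figure D2:**
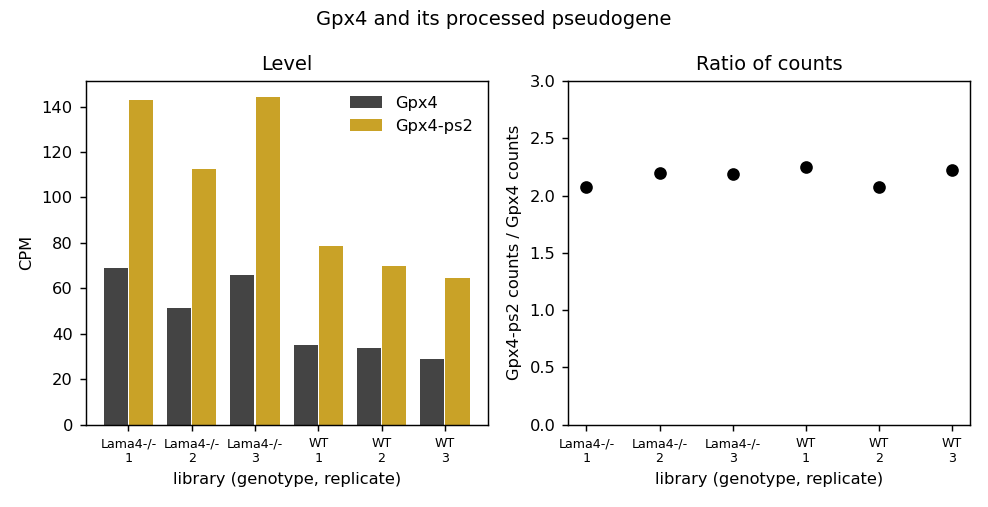
Left, level of Gpx4 (dark bars) and of its processed pseudogene Gpx4-ps2 (yellow bars) in CPM in each library, Lama4-/- first. Right, Gpx4-ps2 counts divided by Gpx4 counts in the same library: the 6 ratios lie between 2.07 and 2.25 in both genotypes.

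Gpx7 and Gpx8 are peroxidases of the endoplasmic reticulum that pass the oxidising power of hydrogen peroxide on to protein disulfide isomerases. Gpx8 (chromosome 13, 113042753 to 113046410, minus strand) was at 376, 288 and 327 CPM in Lama4-/-, against 215, 179.6 and 182 CPM in WT, a log2 fold change of 0.78 (SE 0.18, edgeR adjusted p = 0.237). Gpx7 (chromosome 4, 108400390 to 108406961, minus strand) was at 144, 147 and 164 CPM in Lama4-/-, against 111, 84.3 and 96.5 CPM in WT, a log2 fold change of 0.64 (SE 0.19, edgeR adjusted p = 0.258). Neither gene had overlapping groups. Of the 4 peroxidases with separate groups, Gpx1 and Gpx4 carry the TGA codon shown above and Gpx7 and Gpx8 the cysteine codon, so both kinds were among them.

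Gpx3 encodes the peroxidase that is secreted into the extracellular fluid and plasma (chromosome 11, 54902453 to 54910377, plus strand). It ranked 33 of 14465 tested genes by mean CPM. It was at 2751, 2746 and 2499 CPM in Lama4-/- and at 2113, 2953 and 1881 CPM in WT. WT replicate 2 was the highest of all 6 libraries, so the groups overlapped, and the log2 fold change was 0.20 (SE 0.22, edgeR adjusted p = 0.763). Without that library it was 0.42 (edgeR unadjusted p = 0.0469, adjusted p = 0.384).

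Gclc (chromosome 9, 77754535 to 77794485, plus strand) was at 29.05, 36.6 and 22.3 CPM in Lama4-/- and at 14.2, 22.95 and 34.3 CPM in WT, with a log2 fold change of 0.30 (SE 0.39, edgeR adjusted p = 0.812). Its partner Gclm (chromosome 3, 122245557 to 122270732, plus strand) was at 34.5, 28.1 and 34.7 CPM in Lama4-/- and at 36.7, 27.6 and 43.8 CPM in WT, with a log2 fold change of -0.15 (SE 0.27, edgeR adjusted p = 0.87). In both subunits the WT libraries spread wider than the Lama4-/- ones and the groups overlapped. Exons of Gclm overlap those of Gm17494 on the other strand by 296 bases and of Gm6061 by 244 bases.

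Gss (chromosome 2, 155563181 to 155592810, minus strand) was at 45.4, 30.3 and 36.7 CPM in Lama4-/- and at 22.5, 30.1 and 16.5 CPM in WT. The lowest Lama4-/- library and the highest WT library, replicate 2 of each, were at 30.31 and 30.14 CPM, so the groups only just failed to overlap. The log2 fold change was 0.71 (SE 0.32, edgeR unadjusted p = 0.0613, adjusted p = 0.413). Exons of Gss overlap those of Acss2 by 395 bases and of the antisense RNAs Gssos2 and Gssos1 by 385 and 322 bases on the other strand. The library kit does not mark strand, so reads in those bases cannot be told apart. Gsr (chromosome 8, 33652523 to 33698163, plus strand) was at 68.2, 84.4 and 73.2 CPM in Lama4-/- and at 65.7, 94.2 and 59.7 CPM in WT, with a log2 fold change of 0.04 (SE 0.24, edgeR adjusted p = 0.96).

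Levels can be set beside each other between genes only per length, as CPM per kilobase of the longest annotated transcript. On that scale Gpx3 led at 1672 ± 90.2 in Lama4-/- and 1453 ± 354 in WT (SD, n = 3 each). Gpx1 followed at 505 ± 91.6 in Lama4-/- and 264 ± 42.4 in WT, then Gpx8 at 317 ± 42.02 and 184 ± 18.8 and Gpx7 at 118 ± 8.56 and 75.5 ± 10.4, Lama4-/- before WT. Gpx4 had a level of 62.3 ± 9.50 in Lama4-/- and 32.7 ± 3.19 in WT, counted without its pseudogene. Gsr was at 28.2 ± 3.09 in Lama4-/- and 27.4 ± 6.89 in WT, and its range of ± 1 SD overlapped that of Gpx4 in WT but not in Lama4-/-. Gss, Gclc and Gclm came last, at 11.5 ± 2.32, 8.57 ± 2.10 and 5.80 ± 0.68 in Lama4-/- and at 7.08 ± 2.10, 6.96 ± 2.95 and 6.45 ± 1.46 in WT. In WT these last 3 did not differ beyond their spread. The longest Gss transcript is a retained intron of 3258 bases, and its longest protein-coding transcript has 1963, which would give a higher level per length.

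Summed over the 9 members, the level was 3925 ± 203 CPM in Lama4-/- and 3076 ± 518 CPM in WT, 1.28 times as high, and Gpx3 made up 67.9% of it in Lama4-/- and 75.3% in WT. Lama4-/- libraries stood at 4154, 3853 and 3768 CPM and WT libraries at 2907, 3658 and 2665 CPM, with no overlap. The 4 peroxidases other than Gpx3 summed to 1085 ± 150 CPM in Lama4-/- and 604 ± 65.7 CPM in WT, a separation that follows from those of its 4 genes. The 4 synthesis and recycling genes summed to 175 ± 6.64 CPM in Lama4-/- and 156 ± 17.9 CPM in WT, with overlap.

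The call on the peroxidases depended on the tool. With DESeq2, Gpx1 (adjusted p = 0.00777), Gpx8 (0.00852) and Gpx4 (0.0158) passed and Gpx7 (0.0511) did not, where 0.996% of 16462 genes were called higher. In the authors' deposited table, 4 members had an adjusted p under 0.05: Gpx1 at 0.0061, Gpx8 at 0.00665, Gpx4 at 0.0124 and Gpx7 at 0.0397, beside 1.88% of 10180 genes on the higher side. With limma voom, Gpx1, Gpx4, Gpx7, Gpx8 and Gss had an unadjusted p under 0.05, as 5.43% of genes did on the higher side, and none passed the adjustment. These tests use the same 6 libraries and are not independent of the edgeR test. The unadjusted edgeR p of each of the 4 stayed under 0.05 in all 6 fits that left out a library. In those fits 397 of 15276 genes to 707 of 15386 genes were higher at that threshold. The edgeR adjusted p of the 4 ran from 0.196 to 0.617 there. The 4 had been named from all 6 libraries, so these fits are not separate support.

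Transcript length moved with these differences. Across 14463 tested genes the log2 fold change was lower the longer the longest annotated transcript (Spearman's rho -0.46 across genes, which are not independent replicates). The 4 peroxidases with separate groups are short, between 995 and 1289 bases. Genes from 1032 to 1624 bases, the length decile of Gpx1, Gpx3, Gpx7 and Gpx8, had a median log2 fold change of 0.34, and 9.4% of them were higher at an unadjusted p under 0.05; in the decile of Gpx4, up to 1031 bases, the median was also 0.34 and the share 5.32%. Gpx3, at 1594 bases, lay below that median, and Gpx1, Gpx7 and Gpx8 above it. Groups did not overlap, with Lama4-/- higher, in 21.6% of genes from 1032 to 1624 bases and in 21.5% of those up to 1031 bases. Over all tested genes the share was 10.3%. Gclm, at 5589 bases, was in a decile with a median of -0.58.

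**Figure D3:**
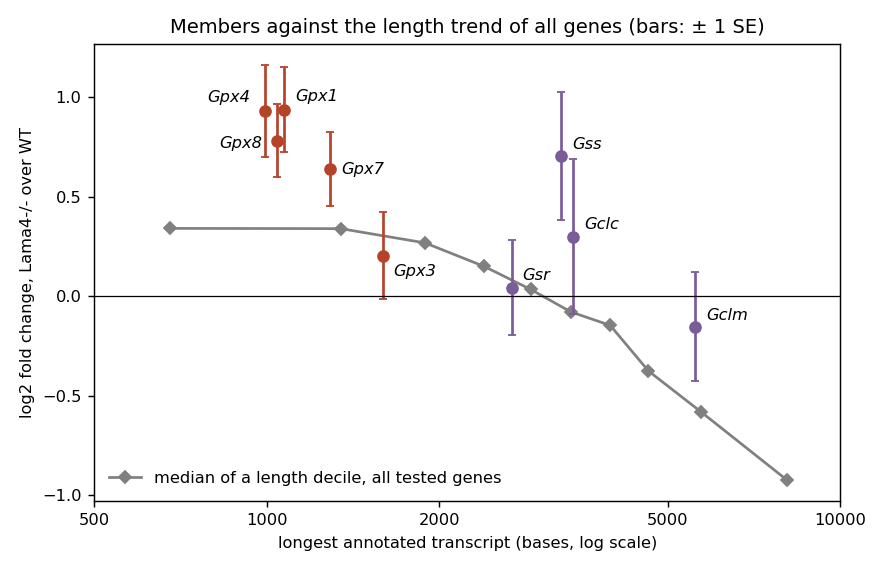
Log2 fold change, Lama4-/- over WT, of the 9 members (red, peroxidases; purple, synthesis and recycling; bars ± 1 SE) against the length of the longest annotated transcript on a log axis. Grey diamonds are medians of the length deciles of all tested genes, which run from 0.34 to -0.93; Gpx1, Gpx4, Gpx7, Gpx8, Gss, Gclc and Gclm lie above the line.

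Once that trend had been taken out of each library, the differences in the 4 peroxidases were smaller and kept their direction. The log2 fold change was 0.61 for Gpx1 (edgeR unadjusted p = 0.0101), 0.58 for Gpx4 (edgeR unadjusted p = 0.0351), 0.44 for Gpx8 (edgeR unadjusted p = 0.0226) and 0.33 for Gpx7 (edgeR unadjusted p = 0.0798). Of all genes, 4.95% were higher and 3.16% lower at an unadjusted p under 0.05 in that fit, and 0% passed the adjustment. The groups of all 4 still did not overlap, as those of 9.02% of genes did not on the higher side. Among the 9 members, Gpx1 had the lowest adjusted p (0.497 in the edgeR fit). Gss was at 0.79 (edgeR unadjusted p = 0.035), or 0.50 (edgeR unadjusted p = 0.14) when its protein-coding length was used. Gpx3 was at -0.081, Gclm at 0.44 and Gsr at -0.027, each with its sign turned and with an unadjusted p above 0.05.

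**Figure D4:**
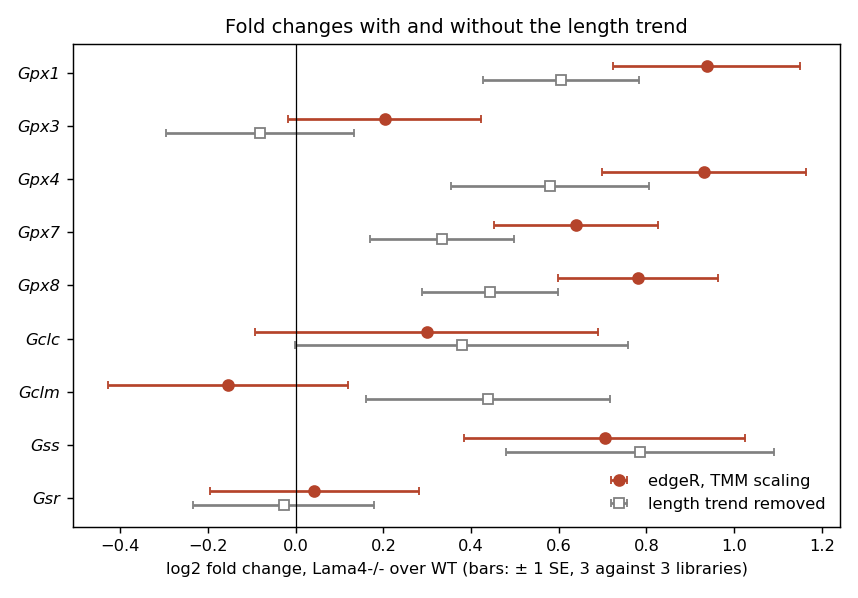
Log2 fold change, Lama4-/- over WT, with ± 1 SE for each member, from the edgeR fit (red) and from the fit with the length trend removed (open grey squares). Gpx1, Gpx4, Gpx7 and Gpx8 shift toward 0 and stay positive, and Gclm, Gpx3 and Gsr change sign.

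At an unadjusted edgeR p under 0.05, 4 of 9 erythroid, 5 of 10 neutrophil and 1 of 8 tested monocyte and macrophage markers were higher in Lama4-/- and 0 were lower, beside 4.45% and 8.34% of all genes. Without the length trend, 1 erythroid, 4 neutrophil and 1 monocyte and macrophage marker were higher and 0 lower, beside 4.95% and 3.16% of all genes. S100a8, S100a9 and Lyz2 were among them, and Hbb-bs and Hba-a1 were not (edgeR unadjusted p = 0.0624 and 0.11). The 9 erythroid markers in the table all had a positive log2 fold change, and their summed level was 1379 to 3874 CPM in Lama4-/- and 260 to 1701 CPM in WT; Hbb-bs averaged 1438 ± 703 against 390.3 ± 343 CPM and Hba-a1 489 ± 229 against 159 ± 137 CPM. The 10 neutrophil markers summed to 86.3 to 728 CPM in Lama4-/- and 27.9 to 111 CPM in WT, led by S100a9 at 155 ± 112 and 27.02 ± 19.4 CPM and S100a8 at 99.5 ± 65.2 and 15.9 ± 8.76 CPM. The 10 monocyte and macrophage markers summed to 76.4 to 131 CPM in Lama4-/- and 35.96 to 66.2 CPM in WT, with Lyz2 at 66.4 ± 26.9 and 16.8 ± 4.69 CPM and Cd14 at 11.96 ± 8.70 and 10.8 ± 2.64 CPM. No marker of the erythroid or neutrophil list was at 0 in all libraries of a genotype, and in the monocyte list Mrc1 was at 0 in all WT libraries. In sorted bulk RNA, fewer cells of a type and less RNA per cell cannot be told apart.

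The erythroid and neutrophil sums overlapped between genotypes. The monocyte and macrophage sums did not, and Lyz2 was their largest part. Of the 8 tested markers of that list, 7 had a positive log2 fold change and 1 a negative one. Marker by marker, groups did not overlap, with Lama4-/- higher, in 1 of 9 erythroid and 4 of 10 neutrophil markers, S100a8 among them. The same held for 4 of 8 tested monocyte and macrophage markers, beside 10.3% of all tested genes. The part of blood cell RNA in the peroxidase differences was not tested. B cell markers summed to 0.94 to 13.5 CPM in Lama4-/- and 3.77 to 9.80 CPM in WT, with Ighm at 7.4 ± 6.81 and 6.50 ± 2.36 CPM. Endothelial markers stood at 0.15 to 0.75 CPM in Lama4-/- and 4.62 to 7.02 CPM in WT, with Cdh5, Tek and Tie1 at 0 in all Lama4-/- libraries and Pecam1 at 0.32 ± 0.38 and 1.72 ± 0.33 CPM. Megakaryocyte markers summed to 8.64 to 18.4 CPM in Lama4-/- and 23.8 to 38.6 CPM in WT, with Itgb3 at 2.79 ± 3.03 and 11.7 ± 7.27 CPM and Ppbp at 3.5 ± 1.04 and 10.1 ± 5.45 CPM.

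The genes around glutathione were read in 12 lists of 137 gene symbols, of which 127 were in the table and 116 were tested. Ero1a and Ero1b, other names of the listed Ero1l and Ero1lb, count among the symbols not found. The symbols Gpx2, Gpx5 and Gpx6 were also not found in the table, so those genes could not be analysed here. The edgeR test called 0 of the 116 tested genes at an adjusted p of 0.05. At an unadjusted p under 0.05, 13 (11.2%) were higher and 3 (2.59%) lower in Lama4-/-, beside 4.45% and 8.34% of all tested genes; the median log2 fold change was 0.13. With the length trend removed, 7 (6.03%) were higher and 2 (1.72%) lower, beside 4.95% and 3.16% of all genes, so the share on the higher side was then near that of all genes. DESeq2 called 3, all higher: Selenof, Idh2 and Pgls. Over all genes DESeq2 called 164 of 16462 (0.996%) higher and 558 lower.

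Other selenoproteins were read beside Gpx1, Gpx3 and Gpx4, whose TGA codon needs the same machinery; of these 3, Gpx3 had overlapping groups. Of 15 tested, 4 were higher and 1 lower at an unadjusted p under 0.05, beside 4.45% and 8.34% of all tested genes. The median log2 fold change was 0.24. Selenof, an endoplasmic reticulum protein that works with the glycoprotein folding quality control, was at 859 ± 48.9 CPM in Lama4-/- and 530.2 ± 31.7 CPM in WT. Its log2 fold change was 0.70 (SE 0.16; edgeR adjusted p = 0.237, DESeq2 adjusted p = 0.00265). In the fit without the length trend, 2 of the 15 were higher and 0 lower at an unadjusted p under 0.05. The shares over all genes in that fit were 4.95% and 3.16%. The 2 were Selenof, at a log2 fold change of 0.62, and Selenom, at 0.49. Selenos and Selenow were each at 0.27 (edgeR unadjusted p = 0.173 and 0.249). Selenom was at 145 ± 19.4 CPM in Lama4-/- and 84.4 ± 18.5 CPM in WT, Selenos at 381 ± 65.2 and 255 ± 39.1 CPM, and Selenow at 96.1 ± 13.03 and 62.6 ± 17.7 CPM. The lower gene was Selenot, a thioredoxin-like protein of the endoplasmic reticulum, at 13.2 ± 0.54 CPM in Lama4-/- and 25.9 ± 11.7 CPM in WT (edgeR unadjusted p = 0.049). Among 10 genes of selenoprotein synthesis 1 was higher, Trnau1ap, which binds the selenocysteine transfer RNA, at 45.5 ± 5.03 CPM in Lama4-/- and 28.4 ± 2.07 CPM in WT. That list's median was 0.07, and Trnau1ap was at a log2 fold change of 0.42 without the length trend (edgeR unadjusted p = 0.103).

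NADPH is what Gsr spends. Of 12 tested genes of NADPH supply, 3 were higher and 0 lower at an unadjusted p under 0.05. The shares over all tested genes were 4.45% and 8.34%, and the list's median was 0.19. Mitochondrial isocitrate dehydrogenase Idh2 was at 207 ± 29.7 CPM in Lama4-/- and 125 ± 8.58 CPM in WT (log2 fold change 0.72, SE 0.19, edgeR adjusted p = 0.238). Pgls, of the oxidative pentose phosphate pathway, was at 94.4 ± 9.41 and 55.03 ± 8.03 CPM (log2 fold change 0.78, SE 0.21, edgeR adjusted p = 0.238). Taldo1, of that pathway's non-oxidative arm, was at 117 ± 31.1 and 78.3 ± 6.65 CPM. Without the length trend, Idh2 (0.46) and Pgls (0.71) kept an unadjusted edgeR p under 0.05 and Taldo1 (0.27) did not. Nnt, the mitochondrial transhydrogenase that C57BL/6J mice are known to lack as a full protein, had 0, 1 and 3 counts in Lama4-/- and 11, 1 and 3 in WT and was not tested.

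Of 19 tested glutathione S-transferases, which conjugate glutathione to other molecules, 2 were higher and 0 lower at an unadjusted p under 0.05. They were Gstp1, at 93.1 ± 3.42 CPM in Lama4-/- and 67.1 ± 8.57 CPM in WT, and Mgst3, at 51.6 ± 8.31 and 30.7 ± 6.66 CPM. Over all tested genes 4.45% were higher and 8.34% lower, and 9.4% were higher among genes from 1032 to 1624 bases. The list's median was 0.36, and 0.07 with the length trend removed, on a median transcript of 1182 bases. Of 11 genes of breakdown and export 1 was lower, the exporter Abcc1, at 11.5 ± 6.54 and 33.3 ± 17.5 CPM, and the dipeptidase Dpep1 led the list at 182 ± 33.5 and 202 ± 88.1 CPM. Of 7 tested genes of cysteine supply 1 was lower, the transporter Slc1a1, at 3.22 ± 1.08 and 12.6 ± 9.80 CPM, and the abundant Slc1a5 was at 252 ± 57.9 and 247 ± 72.7 CPM. The cystine transporter Slc7a11 had at most 19 counts in a library and was not tested. Of 4 glutaredoxins Glrx3 was higher, at 29.7 ± 4.07 and 18.3 ± 1.14 CPM, and Glrx5 was at 88.8 ± 14.5 and 66.5 ± 14.4 CPM, Lama4-/- before WT throughout. Without the length trend, Slc1a1 and Glrx3 kept an unadjusted edgeR p under 0.05, Gstp1, Mgst3 and Abcc1 did not, and Gstm1 was lower (-0.64, edgeR unadjusted p = 0.023).

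The transcription factor NRF2 (Nfe2l2) is known to drive Gclc, Gclm, Gsr and other antioxidant genes through the antioxidant response element. Of 14 tested NRF2 regulators and targets, 0 had an unadjusted p under 0.05 in either direction, against 12.8% of all tested genes; the median log2 fold change was -0.05, and Fth1, ferritin heavy chain, led at 1610.4 ± 78.4 CPM in Lama4-/- and 1361 ± 159 CPM in WT. The core of that element, TGACNNNGC, was sought on both strands in RefSeq promoters (GRCm38.p6) from 250 bases before to 50 after the start site. It was in the promoter of Gclm and in none listed for Gpx1, Gpx3, Gpx4, Gpx7, Gpx8 and Gss, while 14% of 27025 genes had it. The Gclm match starts 134 bases before the start site and reads as the reverse strand of the core. It is printed with 20 bases on each side (chr3:122245403-122245451, plus strand), the match in capitals, because it was the match found among the 7 members searched; Gclc and Gsr were not searched.
Gclm: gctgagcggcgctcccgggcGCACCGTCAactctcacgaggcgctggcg

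Gpx7 and Gpx8 work in the endoplasmic reticulum, whose oxidative folding genes numbered 10 tested. 2 were higher and 0 lower at an unadjusted p under 0.05, with a median of 0.14, and 0 were higher or lower without the length trend. The shares over all genes were 4.45% and 8.34%, and 4.95% and 3.16% without the trend. The peroxiredoxin Prdx4, which removes peroxide in the same compartment, was at 253 ± 14.2 CPM in Lama4-/- and 172 ± 45.02 CPM in WT, and Vkorc1 at 119 ± 17.9 and 76.6 ± 15.2 CPM; without the length trend their log2 fold changes were 0.24 and 0.29 (edgeR unadjusted p = 0.205 and 0.165). The chaperone Hspa5, the most abundant, was at 3893 ± 562 and 3455 ± 1441 CPM, with a log2 fold change of 0.17. Of 5 catalase and superoxide dismutase genes and 9 genes of lipid peroxidation and ferroptosis, 0 had an unadjusted p under 0.05 in the edgeR test; without the length trend, Sod2 was higher at a log2 fold change of 0.88 (edgeR unadjusted p = 0.015) and Slc40a1 at 0.68 (edgeR unadjusted p = 0.0119). Sod3 led the first list at 172 ± 54.7 and 178 ± 43.5 CPM, and the iron exporter Slc40a1 the second at 85.02 ± 21.8 and 61.1 ± 9.20 CPM.

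**Figure D5:**
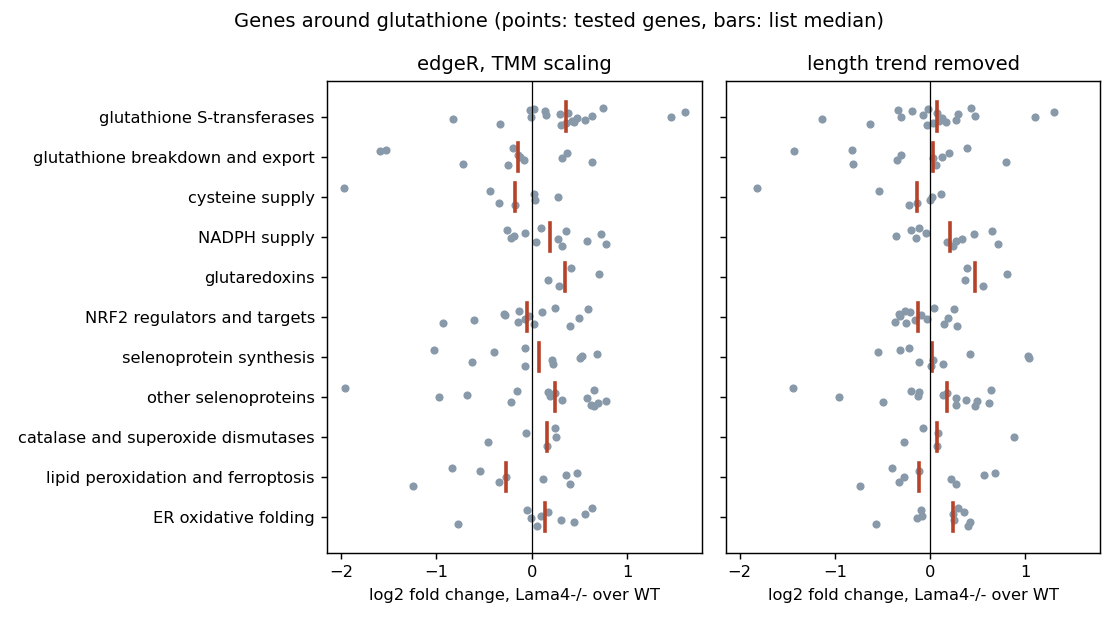
Log2 fold change, Lama4-/- over WT, of the tested genes of each list around glutathione (grey points) with the list's median (red bar), in the edgeR fit (left) and with the length trend removed (right). The glutathione S-transferase median moves from 0.36 to 0.07, and the median of NRF2 regulators and targets from -0.05 to -0.13.

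Likeness of pattern was read from Gpx1, the member with the smallest p, as the root mean square difference of log2 CPM centred on each gene's mean over the 6 libraries. Of 14464 other tested genes the 5 most like it were F830016B08Rik (0.11), the splicing factor gene Bud31 (0.11), Ebp, an enzyme of cholesterol synthesis (0.13), Commd2 (0.13) and Gm9625 (0.13). Gpx8 ranked 35, at 0.16, Gpx4 93, at 0.20, and Gpx7 244, at 0.24. Gss ranked 1698, Gpx3 3797, Gclm 4342, Gclc 4450 and Gsr 5534. Of the members, the other 3 peroxidases with separate groups were the closest to Gpx1 by this measure. Gpx1 was picked by its p, and the 3 were named for separate groups, in the same 6 libraries. Their nearness follows in part from that choice and is a description only.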

How the data were processed

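Per the labels' protocols, cDNA was made with the SMART-Seq v4 kit, which does not mark strand, and read single-end at 75 bases. STAR 2.6.1d and Subread with featureCounts, DESeq2, FastQC 0.11.8 and MultiQC 1.7 are listed in the submitters' processing notes together with build GRCm38; any settings were not given in the sources used here. In the table as deposited, the headings of both blocks of sample columns are exchanged. Under normalized stand whole numbers (100% of cells), which served here as the authors' raw counts. Under raw stands a deposited signal equal to each count multiplied by 1 constant of its library (0.708 to 1.98), left unused. The remaining columns, per the file headers, hold the authors' DESeq2 output: mean signal, log2 fold change and its SE, the Wald statistic (a score) and the p-value, raw and adjusted; the authors' adjusted p-value is NA for 15311 genes.

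Counts were filtered with filterByExpr, scaled with TMM and tested in edgeR 4.0.16 (R 4.3.3; robust quasi-likelihood F test, Benjamini-Hochberg over 14465 genes, no covariate). The SE of a log2 fold change is its size over the root of the F statistic. DESeq2 1.42.0 and limma 3.58.1 were alternatives. Length trends were removed as an offset, a lowess curve (span 0.3) on log10 length of the longest GENCODE M21 transcript. Procedures were tested on simulated data. Every pair of libraries within a genotype differed by more than counting noise (smallest chi-square per gene, 42.6). The labels do not tie replicate numbers across genotypes to a litter, batch or day, and give no sequencing batch. The members, lists and alternatives were chosen with earlier results of these data known; the protein-coding length and the sum of Gpx4 with Gpx4-ps2 were added after seeing the data. Named beside the members are each list's most abundant tested gene and up to 3 with the smallest unadjusted p under 0.05, the 2 marker genes per cell type with the highest levels, and the 5 genes most like the member with the smallest p; others (Nnt, Slc7a11, Cdh5, Tek, Tie1, Mrc1, Selenot, Sod2, Gstm1 and 5 stromal markers) were named after their values were seen. Sequences are from GENCODE transcripts and RefSeq promoters.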

Additional observations from a re-analysis of the deposited data

How the results depend on the processing

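The log2 fold changes of Gpx1, Gpx4, Gpx7, Gpx8, Gss and Gclc kept their sign in all 18 alternatives. The range was 0.60 to 1.06 for Gpx1, 0.58 to 1.05 for Gpx4, 0.44 to 0.88 for Gpx8 and 0.33 to 0.76 for Gpx7, each lowest with the length trend removed. Signs turned, with an unadjusted p above 0.05, for Gpx3 (-0.081 and -0.078 with the length trend removed on the longest and the protein-coding transcript), for Gclm (0.44 and 0.50 likewise; -0.31 to 0.015 over the fits that left out a library, positive without WT replicate 3) and for Gsr (-0.027 with the trend removed; -0.075 to 0.26 over the fits that left out a library). The number of members called was 0 in the edgeR test and in every alternative but DESeq2, where it was 3. Over all genes, 1 was called in the edgeR test, 722 with DESeq2, 12 without a filter, and 0 with upper-quartile scaling, limma voom, no robust moderation, the replicate block or the length trend removed (either length); with a library left out it was 0 to 1. With limma voom, 786 genes were higher and 1566 lower at an unadjusted p under 0.05. The cause was not tested. The median log2 fold change of the members, 0.64, was 0.74 with upper-quartile scaling, 0.44 with the length trend removed (either length), and 0.55 to 0.71 with a library left out. Their summed level was 1.28 times as high in Lama4-/- as in WT, and 1.05 and 1.06 times with the trend removed on the longest and the protein-coding transcript; it was 1.2 to 1.41 with a library left out, highest without WT replicate 2. Members with separate groups numbered 5, beside 10.3% of all tested genes on the higher side. They numbered 7 without WT replicate 2, where the smaller WT group makes separation easier for any gene. With the trend removed on protein-coding length they numbered 4. The share over all genes was not taken in those last fits, so their counts are a description only. Upper-quartile scaling moved the median log2 fold change of all genes from -0.04 to 0.06. Deviations of same-numbered libraries from their genotype means correlated at 0.040, 0.132 and 0.054, and every library correlated best with its own number, a hint from the data and not the design. With the replicate block, the unadjusted edgeR p of Gpx1, Gpx4, Gpx7 and Gpx8 stayed under 0.05, where 640 of 14465 genes were higher at that threshold. In WT replicate 2, the shallowest library, Gclc, Gclm and Gss had 134 to 176 counts and Gpx4 had 197.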
